A study of Homo sapiens with 12 samples.

Results

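RNA of hypoxic HEK293 cells was compared with RNA of the extracellular vesicles (EVs) that such cells release. The comparison used 6 of the 12 libraries of the series, the 3 titled as hypoxia cells and the 3 titled as hypoxia EVs, chosen by title, and no normoxia library. HEK293 is a human embryonic kidney cell line, grown here with 10% serum. Every library of both groups came from cells given the 4EC1 vectors by lipofection for 48 h and then 24 h in a hypoxia chamber. The vector set is described as eGFP-EIF4E-C-YTHDF1/GBP1-CD9, so no library stands for cells without these genes. The oxygen level and the promoters of the vectors are not stated in the sources used here. TRIzol was used to extract the cellular RNA and the ExoRNeasy midi kit the EV RNA, so an effect of the extraction and an effect of the compartment cannot be told apart. Both kinds of RNA went into the same stranded total RNA library kit. The labels do not say whether the replicates came from separate cultures. All p-values therefore rest on the spread among these 6 libraries, which may be technical in origin.

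EVs are membrane-bound particles that bud from the cell surface or are released when endosomes fuse with it, and they carry proteins and RNA of the cell that made them. CD9 and its relatives, the tetraspanins, are scaffold proteins of EV membranes. EIF4E binds the cap of mRNAs and YTHDF1 reads the m6A mark on them. Low oxygen stabilises the hypoxia-inducible factors (HIF), which switch on genes of glycolysis, angiogenesis and collagen modification.

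The cell libraries held 18059381 to 19422032 reads and the EV libraries 3259453 to 6129782, with replicate 3 the shallowest EV library. The deposited values are normalized per library, and 3 reads, the limit that a count of 0 allows, were worth 1.58 units on average in cells and 5.38 in EVs (counting error only). Replicates of a group differed by more than counting noise, with a chi-square per degree of freedom of 5.27 to 7.23. Thinned to 3259453 reads each, the cell libraries showed 30369, 28842 and 29075 genes with at least 1 read and the EV libraries 38835, 38200 and 41743. Every EV library thus showed more genes than every cell library (two-sided exact permutation test, p = 0.1, the smallest that 3 against 3 can give). The 6 HEK293 marker genes tested, which include VIM, KRT18 and NEFM, had cell means of 180.4 (KRT18) to 1805 (NEFM).

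Well-expressed mRNAs were mostly lower in EVs than in cells, and genes near silent in the cells were mostly higher. Of 26724 genes that averaged 10 or more, 12889 (48.2%) were higher in EVs and 7454 (27.9%) lower (limma-trend on log2(value + 1), Benjamini-Hochberg adjusted p under 0.05). The 2 groups did not overlap for 77.7% of the genes tested. Among the 17206 protein-coding genes tested, 37.3% were higher and 39.7% lower. Among the 3433 of them that averaged 500 or more over the 6 libraries, 325 (9.47%) were higher and 2591 (75.5%) lower. Their median log2 fold change was -0.98. These 3433 are called well-expressed here, but some were low in cells and reached 500 through their EV values. MUC4 (cell mean 107.5, EV mean 4605) and GOLGA6L2 (26.2 and 1187) are such genes, and both were higher. Among the 8686 genes that are not protein-coding, 69.3% were higher and 5.48% lower. A difference of at least 2-fold was met by 44.4% of the genes on the higher side and by 19.5% on the lower side. A gene low in cells passed the filter mainly through its EV values, so its direction was partly set by that filter. Each log2 fold change is EV minus cell after addition of 1 to the values, which makes it too small for low genes. In bulk RNA, fewer vesicles that carry a transcript and fewer copies per vesicle cannot be told apart.

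The balance of higher and lower genes depends on the scaling. As deposited, 63.4% of the called genes were higher, against 50.1% with TMM factors, 69.9% with equal totals and 76.0% with equal totals that leave out EIF4E, YTHDF1 and CD9. Relative to the deposited scale these scalings shift the typical gene by -0.53, 0.26 and 0.50 on the log2 scale. The median of the 3433 well-expressed coding genes was -1.52, -0.71 and -0.46 with them, below 0 each time. Subtracting the read density on olfactory receptor genes, described further on, left 7302 genes higher and 8425 lower.

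**Figure D1:**
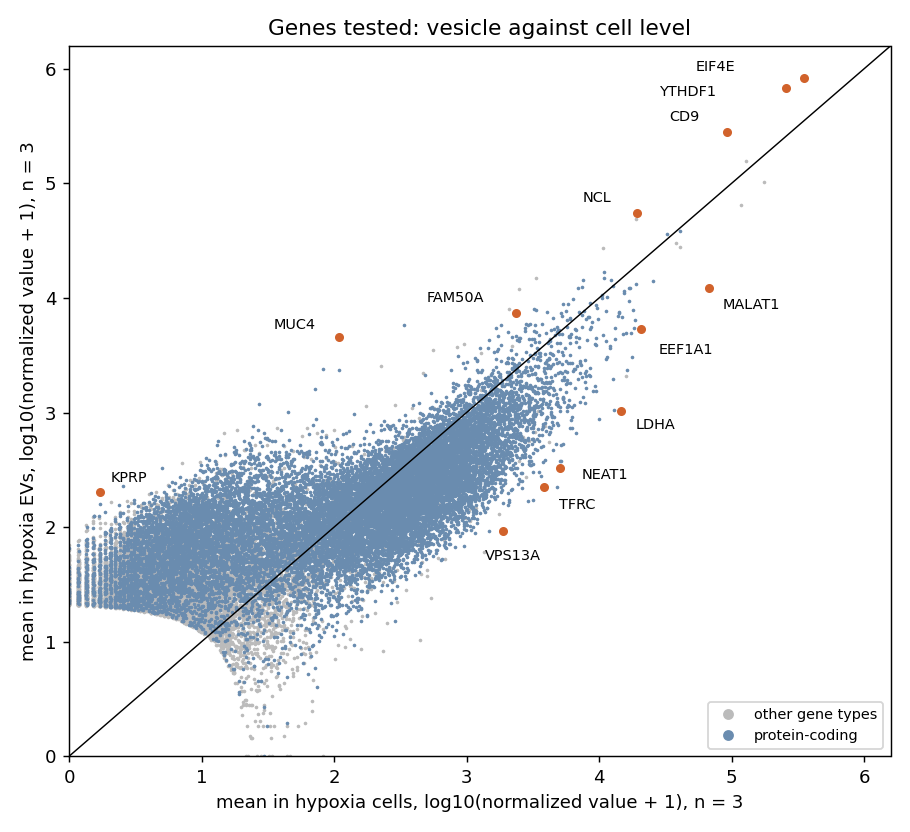
Mean normalized value of each of the 26724 genes tested in hypoxia cells (x) and hypoxia EVs (y), both as log10(value + 1), with the line of equal values. Genes low in cells lie above the line and most well-expressed genes below it, the curved edge at the lower left is the filter, and EIF4E, YTHDF1, CD9, NCL and FAM50A are well expressed and lie above the line.

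EIF4E, YTHDF1 and CD9, named in the vector set, together made up 6.93, 7.07 and 7.28% of the reads in the cells and 19.97, 21.9 and 23.2% in the EVs. Their part was higher in every EV library than in any cell library (two-sided exact permutation test, p = 0.1, and 0.115 after adjustment over 68 classes). GBP1 of the vector set is left out of this sum, since what it stands for is not stated in the sources used here. Reads of the vectors and of the cells' own genes cannot be told apart. YTHDF1 (ENSG00000149658, chromosome 20, 63195429 to 63216234, GRCh38) stood at 263863, 253497 and 261897 in cells and 646647, 672912 and 704784 in EVs (log2 fold change 1.38 ± 0.06 SE, adjusted p = 4.31e-10 by limma). EIF4E (ENSG00000151247, chromosome 4, 98871684 to 98930637) stood at 321500, 364194 and 372883 and 744815, 892229 and 869405 (log2 fold change 1.24 ± 0.08 SE, adjusted p = 1.4e-08 by limma). CD9 (ENSG00000010278, chromosome 12, 6199715 to 6238271) stood at 91266, 89412 and 97627 and 244124, 273207 and 333935 (log2 fold change 1.60 ± 0.09 SE, adjusted p = 6.93e-09 by limma), with the highest EV value in replicate 3. No cell library overlapped an EV library for any of these genes. The 10 highest genes together held 12.6 to 13.8% of the reads of a cell library and 26.4 to 28.7% of those of an EV library.

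Transcripts of other vesicle proteins were mixed, and those of the main EV markers were lower. The tetraspanin CD63, a marker of EVs made in endosomes, stood at 730.2, 730.1 and 801 in cells and 68.1, 158 and 149 in EVs (log2 fold change -2.67 ± 0.26 SE, adjusted p = 7.97e-07 by limma). CD81, another EV tetraspanin, stood at 1452, 1583 and 1605 and 1057, 982 and 656 (log2 fold change -0.81 ± 0.15 SE, adjusted p = 0.000291 by limma). That call ended with equal totals without the vector genes (-0.30). TSG101, which sorts cargo into endosomal vesicles, was lower by limma (-1.85, SE 0.20). So was PDCD6IP, the ALIX adaptor of the same pathway (-2.60, SE 0.14). RAB11A (-2.15) and RAB7A (-1.79), GTPases of recycling and late endosomes, were lower as well. Of 42 genes of vesicle budding, 7 were higher and 22 lower, with a median of -0.48 that turned to 0.03 with equal totals without the vector genes, where 16 were higher and 19 lower. With TMM factors 2 were higher and 30 lower, and after subtraction of the olfactory receptor density the median was -1.31. Of all coding genes tested 37.3% were higher and 39.7% lower. Of 26 tetraspanin genes 8 were higher and 11 lower (median -0.09). Their median was 0.18 with equal totals and 0.42 without the vector genes, but -0.63 with TMM factors and -0.71 after that subtraction. TSPAN6 (-2.90), TSPAN13 (-2.79) and TSPAN3 (-2.33) were among the lower ones.

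The largest falls among well-expressed genes were between -3.72 and -4.47 on the log2 scale. LDHA, which makes lactate at the end of glycolysis (ENSG00000134333, chromosome 11, 18394388 to 18408425), stood at 15556, 14225 and 14258 in cells and 909.7, 974 and 1195 in EVs (log2 fold change -3.85 ± 0.10 SE, adjusted p = 2.05e-11 by limma). TFRC, the receptor that takes up iron-loaded transferrin (ENSG00000072274, chromosome 3, 196027183 to 196082189), stood at 3956, 3946 and 3713 and 219, 225 and 219 (log2 fold change -4.12 ± 0.10 SE, adjusted p = 1.4e-11 by limma). Every cell library lay far above every EV library for both genes, and the EV replicates of TFRC were close to each other.

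CBX5, the heterochromatin protein HP1 alpha (ENSG00000094916, chromosome 12, 54230940 to 54280133), stood at 4840.1, 4889.9 and 4759 in cells and 254, 146 and 275 in EVs (log2 fold change -4.47 ± 0.18 SE, adjusted p = 4.1e-10 by limma). VPS13A, a lipid transfer protein with a very long coding sequence (ENSG00000197969, chromosome 9, 77177353 to 77421541), stood at 1941, 1932 and 1805 and 86.8, 85.3 and 103 (log2 fold change -4.36 ± 0.14 SE, adjusted p = 8.4e-11 by limma). OGT, the enzyme that attaches O-GlcNAc to proteins (ENSG00000147162, chromosome X, 71533083 to 71575897), stood at 2851, 2922 and 2927 and 139, 179.7 and 189 (log2 fold change -4.10 ± 0.13 SE, adjusted p = 9.45e-11 by limma). Cell and EV libraries were far apart for all of them. As for LDHA and TFRC, their choice by a large fall with a small error favoured such a gap. Others among the 10 largest falls were PLOD2 (-4.22) and P4HA1 (-4.06), which hydroxylate collagen, SCD (-3.79), the fatty acid desaturase, TMED7 (-4.33), a cargo receptor of the secretory pathway, and HNRNPA3 (-3.75), an RNA-binding protein. PAICS, a purine synthesis enzyme, followed (-3.72).

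Every measured gene of entry into the endoplasmic reticulum (ER) and of its transport coats was lower, 45 of 45, with a median of -2.04 against -0.98 for well-expressed coding genes. COPB2, a coat subunit, stood at 2704, 2603 and 2512 in cells and 346, 347 and 363 in EVs (log2 fold change -2.88 ± 0.10 SE, adjusted p = 1.47e-10 by limma). SEC63 (-2.71) and SSR3 (-3.04) of the translocation pore and RPN1 (-2.29) of the sugar transferase were lower too. With equal totals without the vector genes 39 of the 45 were lower. Genes of cholesterol synthesis and its control were lower in 20 of 25 cases and higher in 1, MVK (median -1.78). Their share of lower genes was close to the 75.5% of well-expressed coding genes. INSIG1, a regulator of the pathway (-3.42), and SQLE, the squalene epoxidase (-3.40), were among the lower ones.

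Chaperones and enzymes that fold proteins inside the ER differed among themselves. HSPA5, an abundant chaperone, stood at 5152, 4817 and 4836 in cells and 5489, 4789.7 and 5634 in EVs (log2 fold change 0.10 ± 0.08 SE, adjusted p = 0.277 by limma). HSP90B1 (-0.12, limma adjusted p = 0.126) and CALR (0.01, limma adjusted p = 0.912) did not pass the test either, while CANX (-1.66), PDIA6 (-2.22), DNAJC3 (-2.42) and PDIA4 (-0.49) were lower, PDIA4 turning to 0.0221 with equal totals without the vector genes. HSPA5, HSP90B1, CALR and PDIA4 were chosen after their values were seen. Of 28 stress response genes, which include them, 5 were higher and 17 lower (median -0.53, -0.01 with equal totals without the vector genes). The transcription factor genes DDIT3 (1.61) and CEBPB (1.02) and the genes CHAC1 (1.48), PPP1R15A (1.01) and ATF3 (0.73) were the higher ones. With TMM factors the ATF3 call ended (0.19).

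mRNAs of the cytosolic ribosome, a large class of short and abundant transcripts, were lower in 66 of 79 cases and higher in 4, with a median of -1.33. The higher ones were RPL31 (0.68), RPL38 (0.66), RPL19 (0.63) and RPS15 (0.22). RPL5 stood at 16761, 15819 and 16078 in cells and 2565, 2294 and 2227 in EVs (log2 fold change -2.78 ± 0.08 SE, adjusted p = 3.03e-11 by limma), and RPL9 (-2.97), RPS3 (-2.63) and RPL15 (-2.58) were lower as well. The counts depend on the scaling, with 0 higher and 75 lower with TMM factors and 11 higher and 55 lower with equal totals without the vector genes. Translation factors were lower in 35 of 45 cases (median -1.04), close to the 75.5% and -0.98 of well-expressed coding genes, with PABPC1, the poly(A)-binding protein, at -2.47, EEF1A1, which brings tRNA to the ribosome, at -1.93, and EIF4G2 at -2.54. The 4 higher ones were all subunits of eIF3, the complex that readies the small ribosomal subunit, namely EIF3C (0.51), EIF3G (0.45), EIF3A (0.45) and EIF3B (0.31). With TMM factors 0 translation factors were higher. EEF2, which moves the ribosome along, was at 0.13 (limma adjusted p = 0.148). The ribosome of the mitochondrion had 56 of 74 genes lower (median -1.09). Its median cell mean was 377, so many of its genes were below the level of that background. Of all coding genes tested 39.7% were lower.

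Nuclear genes of the respiratory chain and ATP synthase were lower in 69 of 76 cases and higher in 0 (median -1.74). Of well-expressed coding genes 75.5% were lower (median -0.98). ATP5F1B, a catalytic subunit of ATP synthase, stood at 3957, 3667 and 3717 in cells and 486, 507 and 529.6 in EVs (log2 fold change -2.89 ± 0.09 SE, adjusted p = 1.02e-10 by limma), and COX7C (-3.01), NDUFAB1 (-3.16) and ATP5F1A (-3.16) were lower too. The 37 mitochondrial gene IDs were listed at 0 in every library, so the mRNAs made inside mitochondria could not be tested.

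Genes of mitosis and of splicing were lower nearly throughout, against 75.5% of well-expressed coding genes, while DNA replication and the proteasome were close to that share. Mitosis genes were lower in 34 of 35 cases (median -1.74) and higher in 1, INCENP (1.31), with the spindle protein ASPM at -3.57, the checkpoint kinase BUB1 at -2.95 and the DNA topoisomerase TOP2A at -2.68. DNA replication genes were lower in 32 of 40 cases (median -1.22), with the helicase subunits MCM6 (-2.36) and MCM4 (-1.96) among them. Splicing regulators were lower in 36 of 37 cases (median -1.73), CLK3 (0.48) being higher. Of these, HNRNPA2B1, which binds RNA in the nucleus, stood at 12968, 12808 and 12660.2 in cells and 1916, 1862 and 2066 in EVs (log2 fold change -2.72 ± 0.08 SE, adjusted p = 2.99e-11 by limma). Replication-dependent histone mRNAs, which end without a poly(A) tail, were lower in 24 of 30 cases (median -1.65), with the linker histone H1-2 at -2.65. Heat shock proteins and the TRiC chaperonin were lower in 21 of 26 cases, and the proteasome in 25 of 33. HSPD1, the mitochondrial chaperonin, was at -3.04, whereas the abundant HSP90AA1 was at -0.08 (limma adjusted p = 0.27). DNAJB1, a co-chaperone, was the one that was higher (1.53).

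**Figure D2:**
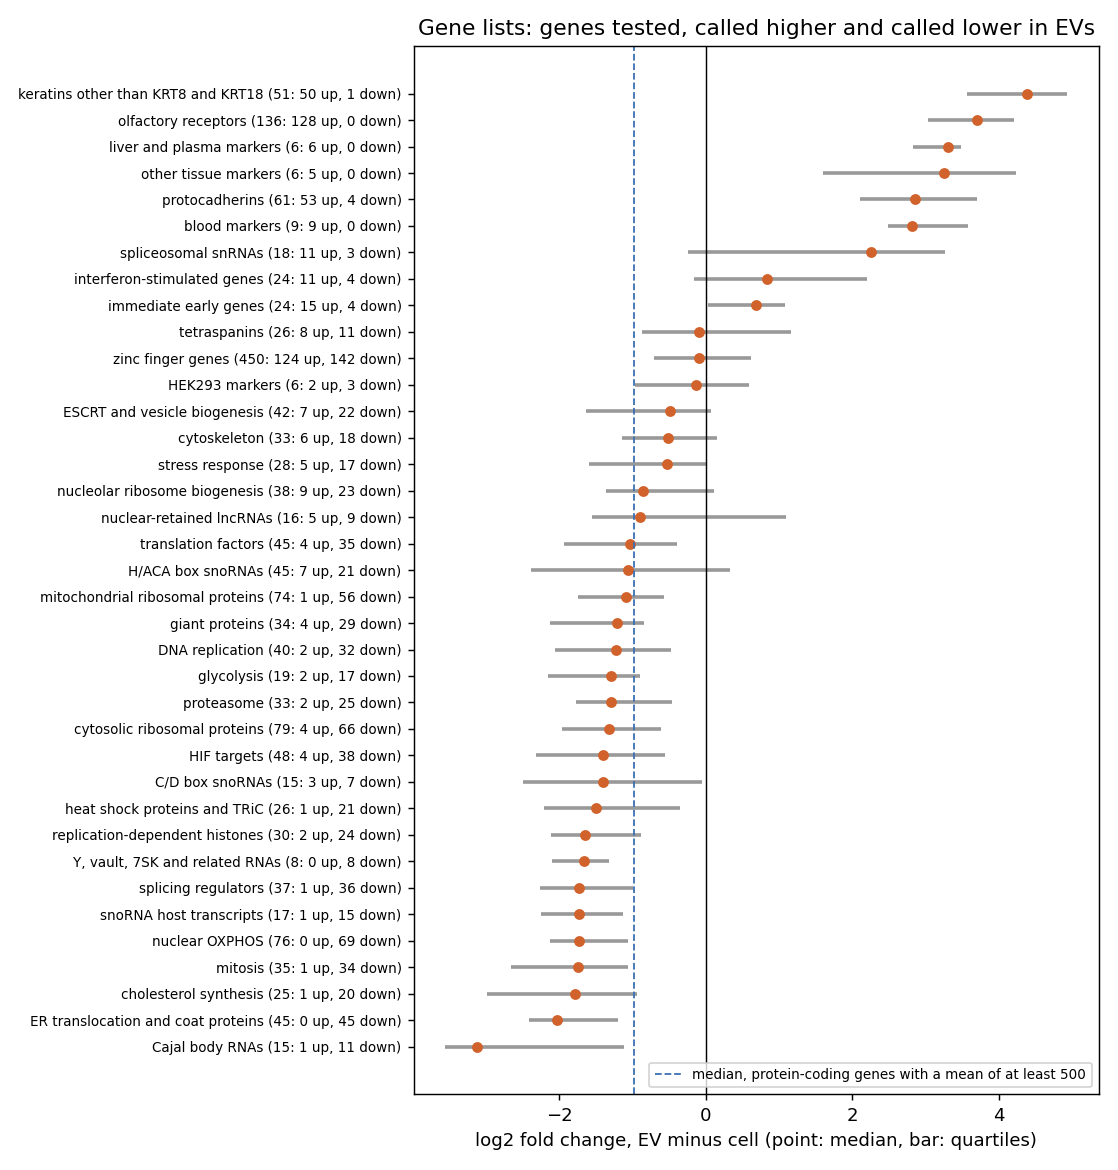
Median log2 fold change (point) and quartiles over genes (bar) for each gene list with more than 5 tested genes, with the number tested, called higher and called lower in the label. The dashed line is the median of the 3433 well-expressed coding genes, -0.98, and lists of ER, respiratory chain, mitosis and splicing genes lie to its left.

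Targets of the hypoxia-inducible factors were about as often lower in EVs as other well-expressed coding genes, of which 75.5% were. Of 48 genes, 4 were higher and 38 lower (median -1.40, against -0.98), and together they took 0.508% ± 0.00960 of cell reads and 0.203% ± 0.00896 of EV reads (SD, 3 libraries per group). With equal totals without the vector genes 8 were higher and 30 lower. The higher ones included EPO, the red cell hormone (4.28), with a cell mean of 2.32, ANGPTL4 (1.79), with 28.1, and ADM (0.43), with 217, the groups of ADM overlapping. They were named after their values were seen. Among the expressed targets, VEGFA, a signal for blood vessel growth (ENSG00000112715, chromosome 6, 43770184 to 43786487), stood at 1577, 1546 and 1495 in cells and 983, 1052 and 1069 in EVs (log2 fold change -0.57 ± 0.10 SE, adjusted p = 0.000116 by limma), a call that ended with equal totals without the vector genes (-0.06). The glucose transporter SLC2A1 stood at 1231, 1403 and 1472 and 616, 528 and 509 (log2 fold change -1.31 ± 0.12 SE, adjusted p = 4.97e-07 by limma).

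BNIP3, which marks mitochondria for removal, stood at 2720.5, 2758 and 2707 in cells and 695, 509 and 502 in EVs (log2 fold change -2.28 ± 0.13 SE, adjusted p = 4.63e-09 by limma). HILPDA, a lipid droplet protein, stood at 565, 496 and 462 and 98.9, 82.2 and 35.3 (log2 fold change -2.92 ± 0.30 SE, adjusted p = 1.73e-06 by limma). The collagen enzyme PLOD2 stood at 3125, 3270.1 and 3092 and 131, 177 and 209 (log2 fold change -4.22 ± 0.15 SE, adjusted p = 1.69e-10 by limma). These mRNAs were lower in every EV library than in any cell library, and PDK1 (-3.30), which slows entry of pyruvate into mitochondria, and WSB1 (-2.96) were lower by similar amounts. CA9, a carbonic anhydrase, was near the floor, at 6.49, 6.18 and 3.15 in cells and 40.1, 10.7 and 7.57 in EVs, and did not pass (limma adjusted p = 0.0897).

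Glycolysis genes were mostly lower in EVs, with PGK1 an exception. PGK1, which makes ATP in the pathway (ENSG00000102144, chromosome X, 77910739 to 78129296), stood at 7754, 7354 and 7339 in cells and 10409, 13411 and 13220.5 in EVs (log2 fold change 0.71 ± 0.09 SE, adjusted p = 1.33e-05 by limma), so every EV library was above every cell library. With TMM factors that call ended (0.17). The lactate exporter SLC16A3 was the other one that was higher (1.26). ENO1, which acts further down, stood at 17955, 17748 and 17397 and 3465, 2731 and 3019 (log2 fold change -2.53 ± 0.09 SE, adjusted p = 1.31e-10 by limma). TPI1 (-2.47), LDHB (-2.37) and GAPDH (-1.29) were lower, and in all 17 of 19 glycolysis genes were lower and 2 higher (median -1.29). Of well-expressed coding genes 75.5% were lower (median -0.98). ACTB, often used as a reference mRNA, was at -0.52 (limma adjusted p = 0.000698), and with equal totals without the vector genes that call ended (-0.00).

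**Figure D3:**
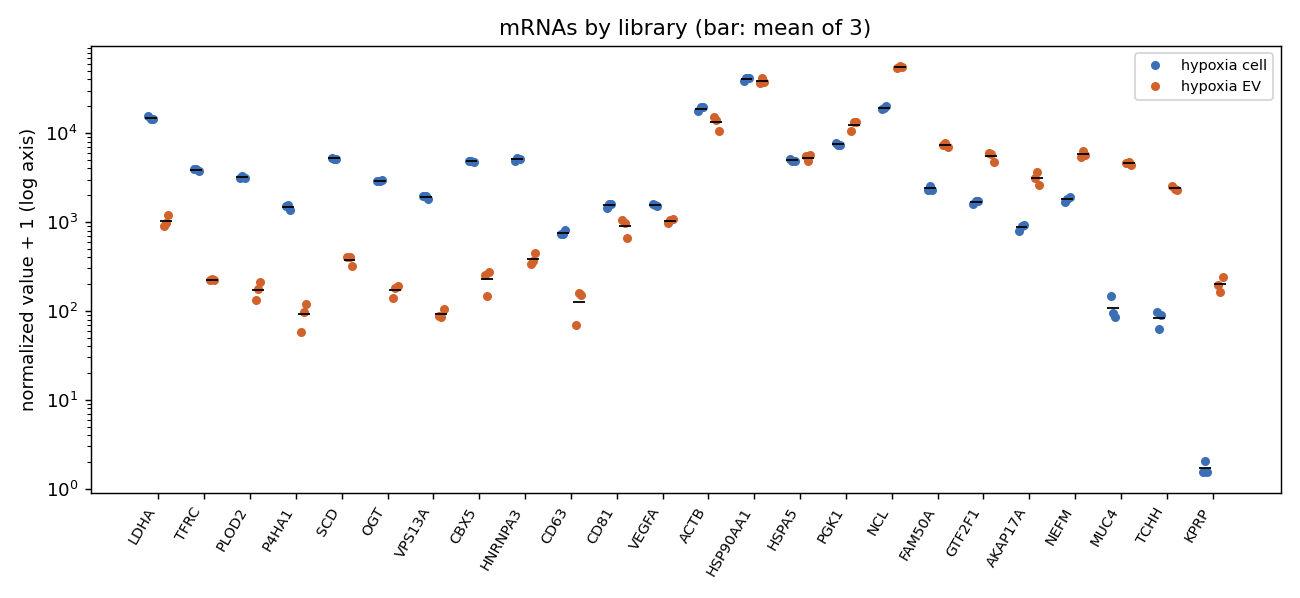
Normalized value + 1 (log axis) of 24 mRNAs in each library, with hypoxia cells and hypoxia EVs in different colours and a bar at the mean of 3. The EV points of LDHA, TFRC and VPS13A lie far below the cell points, those of HSP90AA1 and HSPA5 overlap them, and those of NCL, FAM50A and GTF2F1 lie above them.

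A minority of well-expressed mRNAs was higher in EVs. AKAP17A, a splicing-associated anchor protein (ENSG00000197976, chromosome X, 1591593 to 1602514), stood at 783, 902 and 915 in cells and 3142, 3629.6 and 2618 in EVs (log2 fold change 1.84 ± 0.12 SE, adjusted p = 2.21e-08 by limma). GTF2F1, a subunit of the general transcription factor TFIIF (ENSG00000125651, chromosome 19, 6379569 to 6393981), stood at 1599, 1720.2 and 1724 and 5906, 5883 and 4764 (log2 fold change 1.71 ± 0.10 SE, adjusted p = 6.08e-09 by limma). FAM50A, a nuclear protein linked to splicing (ENSG00000071859, chromosome X, 154444126 to 154450654), stood at 2294, 2546 and 2301 and 7399, 7786 and 7049 (log2 fold change 1.64 ± 0.08 SE, adjusted p = 1.83e-09 by limma). The EV values were above the cell values in all libraries for each of them, which their choice by a large rise with a small error favoured.

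NCL, the abundant nucleolar RNA-binding protein nucleolin (ENSG00000115053, chromosome 2, 231453531 to 231483641), stood at 18583, 19223 and 20250.3 in cells and 54382, 56344 and 55006 in EVs (log2 fold change 1.51 ± 0.06 SE, adjusted p = 3.98e-10 by limma). NEFM, a neurofilament subunit typical of this cell line, stood at 1677, 1827 and 1912 and 5439.6, 6236 and 5594 (log2 fold change 1.67 ± 0.09 SE, adjusted p = 3.21e-09 by limma). The others among the 10 largest rises of genes that averaged 500 or more in cells were FAM32A (1.62), CD9, HDGFL2 (1.52), DNAJB1 and the kinase gene DAPK3 (1.53). Of these 10 genes 5 lie on chromosome 19, and none of the 10 largest falls of genes that averaged 500 or more in cells does. The rises had a GC content of 47.2 to 65.9% and the falls of 34.4 to 47.1%.

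Immediate early genes, short-lived mRNAs of transcription factors made first after a signal, were higher in 15 of 24 cases and lower in 4 (median 0.69). Of all coding genes tested 37.3% were higher, and of the well-expressed ones 9.47%. The median cell mean of the list was 216, below the average of 500 over all libraries that defines the well-expressed genes. EGR1 (ENSG00000120738, chromosome 5, 138465490 to 138469315) stood at 206, 161 and 195 in cells and 987, 776 and 613 in EVs (log2 fold change 2.06 ± 0.18 SE, adjusted p = 3.35e-07 by limma). JUNB stood at 313, 389.8 and 338 and 859, 859 and 812 (log2 fold change 1.28 ± 0.13 SE, adjusted p = 1.21e-06 by limma). FOSB (1.86), EGR2 (3.08) and FOS (1.19) were higher too, whereas JUN, the most abundant of the list, was at 0.06 (limma adjusted p = 0.461). The balance depends on the scaling, since TMM factors gave 7 higher and 8 lower (median 0.15). MYC was higher as well (1.04, SE 0.12).

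Nucleolar genes that make ribosomes were split. Of 38 genes, 9 were higher and 23 lower (median -0.86), but 2 higher and 30 lower with TMM factors. Besides NCL, UBTF, which activates transcription of ribosomal RNA genes, stood at 1786, 1738 and 1648 in cells and 4908, 4755 and 4431 in EVs (log2 fold change 1.45 ± 0.08 SE, adjusted p = 7.04e-09 by limma). NPM1, the other abundant nucleolar protein, stood at 18271, 19083 and 18758 and 5941, 6650.1 and 6608 (log2 fold change -1.55 ± 0.07 SE, adjusted p = 9.59e-10 by limma). HEATR1 (-2.78), WDR75 (-3.09) and GNL3 (-2.22) were lower, and TCOF1, a cofactor of UBTF, was at 0.09 (limma adjusted p = 0.322). UBTF, WDR75 and TCOF1 were chosen after their values were seen.

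The GC content of a transcript went with its EV-to-cell difference. Classes of GC content and length, 5 of equal size each, were formed after the values were seen over the 3433 well-expressed coding genes, and are a description. In classes of rising GC content the median log2 fold change was -1.94, -1.54, -1.003, -0.54 and -0.30. The lowest class (up to 41.2% GC) had 8 of 687 genes higher and 661 lower, and the highest class (from 57.6% GC) had 149 higher and 342 lower. The median of the top class less that of the bottom class was 1.91, 1.65 and 1.34 in EV replicates 1, 2 and 3, and between -0.0211 and 0.0185 in the cell libraries, each against the mean of the cells. The shallowest EV library thus had the smallest span, and all EV libraries lay far from all cell libraries. In classes of rising exon length the median was -0.90, -0.86, -0.96, -1.08 and -1.10, a much smaller range. Within classes of rising GC content, the longest genes had medians of -1.94, -1.47, -0.79, -0.49 and -0.07. The shortest genes had -1.64, -1.56, -1.33, -0.70 and -0.43. The longest were thus lower than the shortest in the lowest GC class only. mRNAs of giant proteins, with very long coding sequences, were lower in 29 of 34 cases and higher in 4 (median -1.22). Of all 3433 genes 75.5% were lower (median -0.98). Across the 3433 genes, which are not independent replicates, the Spearman correlation of the log2 fold change was 0.595 with GC content and -0.0883 with length (they share the same 6 libraries). With equal totals without the vector genes the lowest GC class was at -1.43 and the highest at 0.22.

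**Figure D4:**
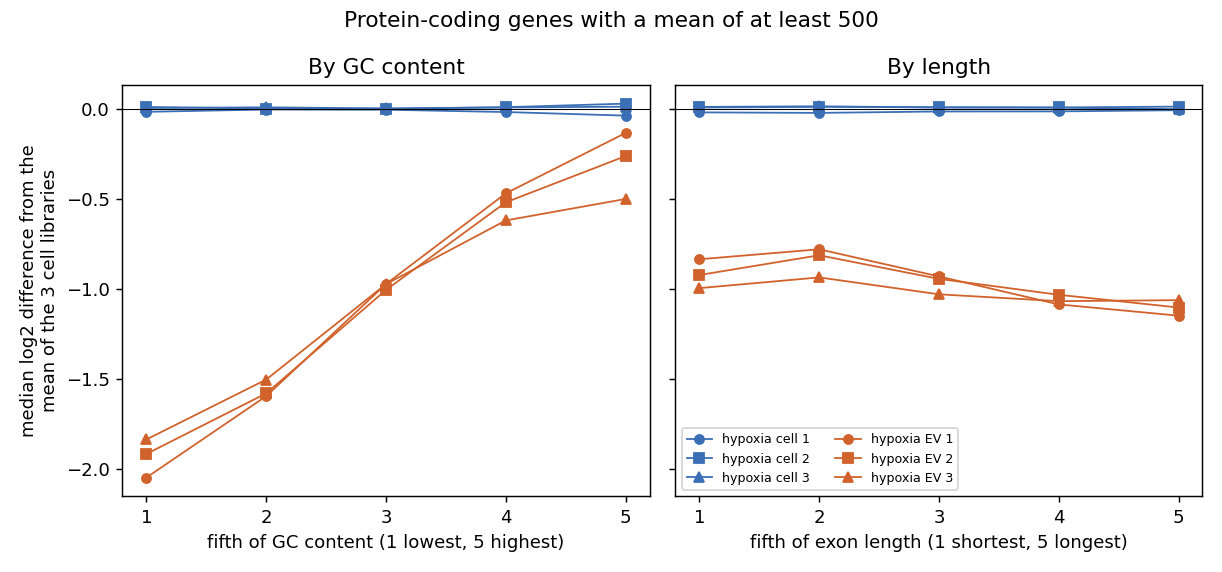
Median log2 difference of each library from the mean of the 3 cell libraries, in 5 classes of GC content (left) and of exon length (right), over 3433 well-expressed coding genes. The 3 EV lines climb with GC content, by 1.34 to 1.91 from the lowest to the highest class, and are nearly flat with length, while the cell lines stay at 0.

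The coding sequences of genes at both ends show the contrast. Each run below is the middle 120 bases of the longest coding sequence in GENCODE 29 (GRCh38), read 5′ to 3′ on the gene's own strand, with every G and C in capitals. FAM50A and VPS13A lie on the plus strand and GTF2F1 and TFRC on the minus strand. The first 2 belong to mRNAs that were higher in EVs and the last 2 to mRNAs that were lower.
FAM50A: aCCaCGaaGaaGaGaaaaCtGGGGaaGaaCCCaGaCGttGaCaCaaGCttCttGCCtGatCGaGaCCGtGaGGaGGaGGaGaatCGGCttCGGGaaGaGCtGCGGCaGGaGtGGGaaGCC
GTF2F1: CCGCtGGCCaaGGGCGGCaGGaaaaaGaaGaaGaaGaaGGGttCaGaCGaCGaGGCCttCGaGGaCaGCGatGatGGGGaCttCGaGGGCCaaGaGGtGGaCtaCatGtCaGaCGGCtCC
VPS13A: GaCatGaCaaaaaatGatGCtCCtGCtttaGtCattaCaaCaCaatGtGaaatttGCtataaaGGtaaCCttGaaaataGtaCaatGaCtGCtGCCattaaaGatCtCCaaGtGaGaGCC
TFRC: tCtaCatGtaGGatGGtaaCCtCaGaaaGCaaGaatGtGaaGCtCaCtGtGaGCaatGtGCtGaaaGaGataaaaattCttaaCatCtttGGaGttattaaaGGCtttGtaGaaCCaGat
The stretches hold 56.7, 59.2, 36.7 and 36.7% G and C, in that order. Over the whole coding sequence the share is 56.5% for FAM50A, 60.2% for GTF2F1, 37.3% for VPS13A and 44.2% for TFRC, and at the last codon position 81.7, 80.9, 30.1 and 42.6%.

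GC content did not order all groups. Replication-dependent histones had a median GC content of 57.3% and a median log2 fold change of -1.65, while immediate early genes had 55.2% and 0.69. Cholesterol synthesis genes had 50.5% and -1.78, against 41.1% and -1.73 for splicing regulators. Zinc finger genes, which include many repressors, had 43.4% and -0.10, the median turning to 0.17 with equal totals and 0.42 without the vector genes. EIF4E, higher in EVs, had 39%, counted on its own longest transcript and not on the vector.

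Genes that HEK293 cells barely transcribe had reads in all EV libraries. KPRP, a skin protein (ENSG00000203786, chromosome 1, 152759561 to 152762052), stood at 0.541, 1.03 and 0.524 in cells and 196, 163 and 239.6 in EVs (log2 fold change 6.88 ± 0.50 SE, adjusted p = 5.39e-08 by limma). MUC4, a membrane mucin (ENSG00000145113, chromosome 3, 195746765 to 195812277), stood at 147, 92.7 and 83.4 and 4618, 4781 and 4416 (log2 fold change 5.45 ± 0.17 SE, adjusted p = 9.25e-11 by limma). TCHH, the trichohyalin of hair follicles (ENSG00000159450, chromosome 1, 152106317 to 152115454), stood at 95.2, 62.3 and 88.1 and 2542, 2354 and 2269.8 (log2 fold change 4.87 ± 0.16 SE, adjusted p = 1.15e-10 by limma). The EV libraries were close to each other and far above the cells for all of them. The other coding genes among the 10 largest rises were LSP1 (6.56), PLA2G2F (6.04), MUC5AC (5.44), RP1L1 (5.72), TRIM29 (5.55), the endothelial cadherin CDH5 (5.47) and GOLGA6L2 (5.50), a member of a multigene family whose reads may be shared. The KPRP values in cells are 1 or 2 reads, so its fold change depends on the pseudocount. These 10 genes had cell means of 0.698 to 107.5 and reached the level required for naming mainly through their EV values. They were then ranked by the same EV-to-cell difference. Their direction was thus partly set by the choice, and their p-values are a description rather than separate evidence of a rise.

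Such signal was spread over families rather than held by a single gene. Olfactory receptor genes, which work in nasal neurons, had a summed density, in reads per kilobase scaled to library size (RPKM), of 0.0880, 0.0621 and 0.0630 in cells. In EVs it was 1.03, 0.960 and 1.10 RPKM, 14.5 times the cell density (two-sided exact permutation test, p = 0.1). EV reads fell on 321 of these 350 genes. Of the 136 that passed the filter, mostly through the EVs, 128 were higher, which that filter favours. Keratins other than KRT8 and KRT18 had 0.363 ± 0.0327 RPKM in cells and 4.56 ± 0.0996 RPKM in EVs (SD, 3 libraries per group). Coding genes that averaged 20 or less in cells, picked for those low values, were put in 5 classes of GC content. Over the 1287 of the lowest GC class the density was 0.128 ± 0.0136 RPKM in cells and 0.693 ± 0.185 RPKM in EVs. Over the 1287 of the highest it was 0.220 ± 0.0120 and 3.33 ± 0.246 RPKM (SD, 3 libraries per group). The EV density on these genes was thus higher where their GC content was higher.

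Markers of other cell types also had EV reads. Of 9 tested blood markers 9 were higher, of 6 liver and plasma markers 6, and of 6 endothelial and fibroblast markers 5. Most of them passed the filter through their EV values, so these counts were favoured by it. COL1A1, a collagen that the cells express, went from 309 to 670.4 (1.12), and LUM stood at 14.8 and 11.9 (-0.20, limma adjusted p = 0.81). Summed over each list, the EV density was 2.65 to 2.68 RPKM for blood markers, 1.09 to 1.49 for liver and plasma markers and 3.15 to 3.33 for the others, against 0.418 to 0.561, 0.0619 to 0.130 and 0.599 to 0.738 RPKM in cells. EV reads fell on all 14 blood, 8 liver and plasma and 6 endothelial and fibroblast markers. The EV density on keratins was 4.45 to 4.63. The platelet gene GP9 was the blood marker at 0 in every cell library, which allows 1.58 units, and at 40.1, 19.8 and 32.8 in EVs. The part of RNA from other cells or from serum in these values was not tested.

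Protocadherins, adhesion proteins of neurons, differed among themselves. Of 61 genes, 53 were higher in EVs and 4 lower, most of the former having passed the filter through their EV values. The 4 lower ones had cell means above 100, with PCDH10 at 3374, 3195 and 3303 in cells and 1276, 1273 and 1306 in EVs (log2 fold change -1.36 ± 0.08 SE, adjusted p = 1.33e-08 by limma), and PCDH9 (-1.44) and PCDH7 (-1.44) alike. PCDH12, low in cells, stood at 30.3, 36 and 28.8 and 235, 189 and 222 (log2 fold change 2.72 ± 0.26 SE, adjusted p = 6.71e-07 by limma). Together they took 0.0872% ± 0.00451 of cell reads and 0.0874% ± 0.00290 of EV reads (SD, 3 libraries per group). After subtraction of the olfactory receptor density 11 were higher. Interferon-stimulated genes also split, with the low genes MX1 (3.85), MX2 (3.99) and XAF1 (3.88) among the higher ones. In all 11 of 24 were higher and 4 lower, and their median of 0.83 turned to -0.20 after that subtraction.

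Small nuclear RNAs of the spliceosome went opposite ways. U1, which binds the start of introns, and U5, which holds the exon ends together, were higher in EVs, and U4 was lower. U1 genes and their copies took 0.00328, 0.00335 and 0.00418% of cell reads and 0.0528, 0.0370 and 0.0409% of EV reads, a ratio of 12.1. U5 genes and copies took 0.00571, 0.00533 and 0.00903% of cell reads and 0.0388, 0.0471 and 0.0479% of EV reads, a ratio of 6.66. U4 genes and copies went from 0.0192% ± 0.00492 to 0.00758% ± 0.000968, and U2 genes and copies from 0.0135% ± 0.00177 to 0.00324% ± 0.000723 (SD, 3 libraries per group). The U2 value rests on a single copy, RNU2-59P, which held 87.4% of it in cells. Without RNU2-59P the U2 genes went from 0.00171% ± 0.000313 to 0.00148% ± 0.00103, a ratio of 0.870, and the groups overlapped. The ratios of U1 (11.6), U5 (6.25) and U4 (0.383) moved little without their highest copy, a check added after the values were seen. For each whole class, formed after the values were seen, no EV library overlapped a cell library (two-sided exact permutation test, p = 0.1, and 0.115 after adjustment).

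U1, its copy RNVU1-7 and U4 are printed here whole, 5′ to 3′ as DNA letters from GENCODE 29 (GRCh38), to show how little the U1 copies differ, with capitals for the bases of U1 that pair with the 5′ splice site.
RNU1-1: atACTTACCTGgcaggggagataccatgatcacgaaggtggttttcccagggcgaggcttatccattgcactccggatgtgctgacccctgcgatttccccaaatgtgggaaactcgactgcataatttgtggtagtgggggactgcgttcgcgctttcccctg
RNVU1-7: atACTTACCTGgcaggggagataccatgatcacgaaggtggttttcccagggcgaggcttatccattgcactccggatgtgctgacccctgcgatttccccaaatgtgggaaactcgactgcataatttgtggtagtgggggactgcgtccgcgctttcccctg
RNU4-2: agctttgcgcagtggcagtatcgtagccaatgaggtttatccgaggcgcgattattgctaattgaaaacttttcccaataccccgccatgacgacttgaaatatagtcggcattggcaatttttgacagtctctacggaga
RNU1-1 lies on chromosome 1, 16514122 to 16514285, on the minus strand like RNVU1-7 and RNU4-2. RNVU1-7 differs from RNU1-1 by T150C alone, with the RNU1-1 base first and positions counted from 1 at its 5′ end. RNU1-28P and RNVU1-18 do not differ from RNU1-1 over the 164 bases, so a read from the one cannot be told from a read from the other, and values of single copies are uncertain.

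As deposited, RNVU1-7 (ENSG00000206585, chromosome 1, 148038753 to 148038916) stood at 16.8, 22.1 and 34.1 in cells and 581, 484 and 487 in EVs (log2 fold change 4.41 ± 0.27 SE, adjusted p = 1.15e-08 by limma). RNU5A-1 (ENSG00000199568, chromosome 15, 65296051 to 65296166) stood at 139.5, 123 and 258 and 948, 1258 and 1183 (log2 fold change 2.77 ± 0.23 SE, adjusted p = 2.04e-07 by limma). RNU4-2 (ENSG00000202538, chromosome 12, 120291763 to 120291903) stood at 809.7, 1109 and 1512 and 473, 308 and 366 (log2 fold change -1.56 ± 0.20 SE, adjusted p = 1.53e-05 by limma). The groups did not overlap for any of them. In a list of snRNA genes without pseudogenes, 11 of 18 tested were higher and 3 lower (median 2.25). Of all 32 snRNA genes tested, 18 (56.3%) were higher and 6 (18.8%) lower. Among all genes tested that are not protein-coding, 69.3% were higher and 5.48% lower. The 5S ribosomal RNA gene RNA5S9 was higher as well, at 483, 459 and 729.5 in cells and 2923, 3759 and 3851 in EVs (log2 fold change 2.67 ± 0.16 SE, adjusted p = 1.09e-08 by limma). 5S genes and their copies together went from 0.0820% ± 0.0257 of cell reads to 0.439% ± 0.0836 of EV reads (SD, 3 libraries per group).

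Some other structural RNAs were lower in EVs. Cajal body RNAs, which guide modification of snRNAs in the nucleus, were lower in 11 of 15 cases and higher in 1 (median -3.13). SCARNA10 stood at 665, 706 and 680.2 in cells and 54.8, 51.8 and 47.9 in EVs (log2 fold change -3.71 ± 0.17 SE, adjusted p = 1.26e-09 by limma). TERC, the RNA template of telomerase, stood at 938, 927 and 1088 and 148, 148 and 63.1 (log2 fold change -3.13 ± 0.26 SE, adjusted p = 2.39e-07 by limma). Cajal body RNAs together went from 0.0413% ± 0.00233 of cell reads to 0.00715% ± 0.000726 of EV reads (SD, 3 libraries per group). The higher one, of low level, lost its call with TMM factors, with edgeR and without cell replicate 2 or EV replicate 3.

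Y and vault RNAs, 7SK, RMRP and related small RNAs were lower in 8 of 8 cases (median -1.67), 6 of them with equal totals without the vector genes. VTRNA1-3, a vault RNA, stood at 279, 273 and 340.4 in cells and 5.34, 22.8 and 35.3 in EVs (log2 fold change -4.07 ± 0.49 SE, adjusted p = 7.15e-06 by limma), and the Y RNA RNY4 at 468, 321 and 618 and 94.8, 100.5 and 139 (log2 fold change -2.04 ± 0.24 SE, adjusted p = 5.08e-06 by limma). BCYRN1, the BC200 RNA, was lower (-2.31). The abundant 7SK RNA, which restrains transcription elongation, stood at 109913, 117863 and 125777 and 78029, 58299.9 and 59369 (log2 fold change -0.86 ± 0.10 SE, adjusted p = 3.61e-06 by limma). RMRP, the RNA of RNase MRP, was at -0.57, a call that ended with equal totals without the vector genes (-0.06).

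Small nucleolar RNAs, which guide modification of ribosomal RNA, were split. The H/ACA class had 7 of 45 tested genes higher and 21 lower, and the C/D class 3 of 15 higher and 7 lower, but 0 higher and 12 lower with TMM factors. SNORA73B stood at 3350.1, 3906 and 4505 in cells and 847, 874 and 549.8 in EVs (log2 fold change -2.39 ± 0.16 SE, adjusted p = 2.7e-08 by limma), and SNORA71D at 46, 53.5 and 97 and 302, 505 and 373 (log2 fold change 2.61 ± 0.28 SE, adjusted p = 2.46e-06 by limma). SNORD15B was lower (-3.72). SNORD3A, a U3 gene of ribosomal RNA processing, was at 1753, 2178 and 2646 and 2306, 5770.2 and 3332, with EV replicate 2 far above the others (log2 fold change 0.71, limma adjusted p = 0.0162). Its groups overlapped, and the call ended with TMM factors (0.17), edgeR (0.47), DESeq2 (0.44) and the olfactory receptor density removed, and without cell replicate 1 or EV replicate 2. Most snoRNA genes were under the filter, with 265 of 280 C/D and 148 of 193 H/ACA genes not tested.

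**Figure D5:**
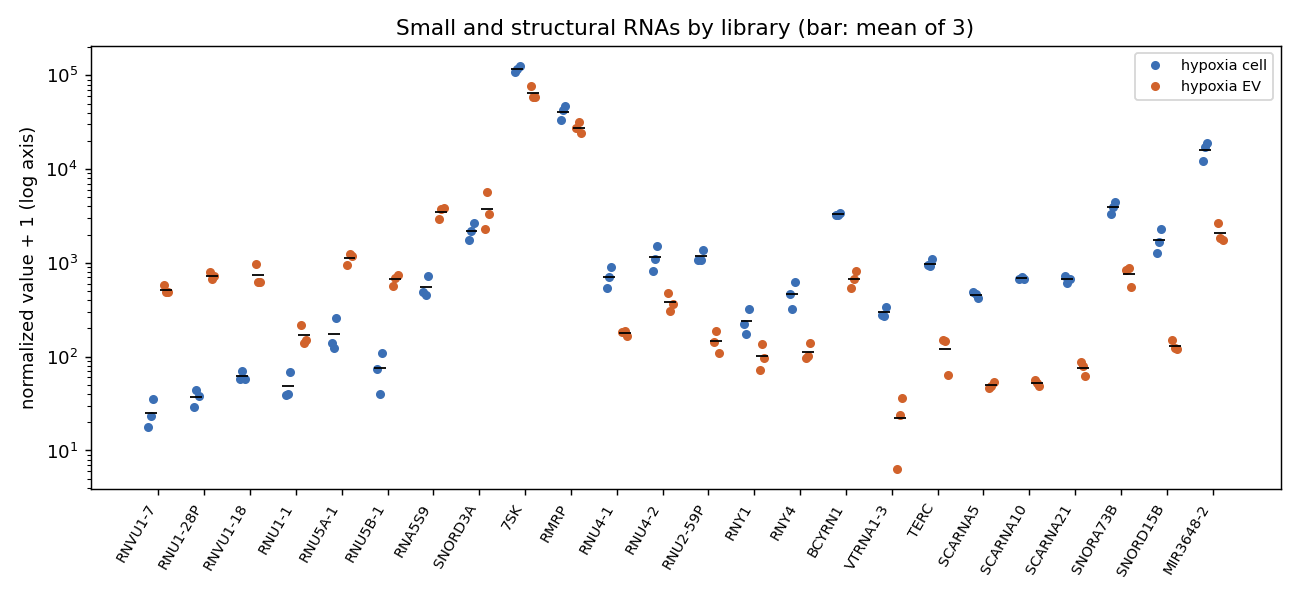
Normalized value + 1 (log axis) of 24 small and structural RNAs in each library, with a bar at the mean of 3. EV points of U1, U5 and 5S genes lie above the cell points, and those of RNU2-59P, U4, Cajal body, Y and vault RNAs lie below them.

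Long noncoding RNAs known to stay in the nucleus were more often lower than higher in EVs. MALAT1, a scaffold of splicing speckles (ENSG00000251562, chromosome 11, 65497688 to 65506516), stood at 64762, 68733 and 67766 in cells and 7940.4, 14121 and 14908 in EVs (log2 fold change -2.50 ± 0.17 SE, adjusted p = 2.93e-08 by limma), with EV replicate 1 the lowest. NEAT1, the backbone of paraspeckles (ENSG00000245532, chromosome 11, 65422774 to 65445540), stood at 5205, 5137 and 4922 and 333, 317 and 323 (log2 fold change -3.97 ± 0.09 SE, adjusted p = 1.36e-11 by limma). KCNQ1OT1 (-1.75) and FIRRE (-1.53) were lower as well, and over the list 5 of 16 were higher and 9 lower. The shares for all tested genes that are not protein-coding were 69.3% higher and 5.48% lower. MEG3, low in the cells, stood at 16.2, 4.12 and 21.5 and 423, 457 and 388 (log2 fold change 5.07 ± 0.45 SE, adjusted p = 3.51e-07 by limma), and was chosen after its values were seen. Host transcripts of snoRNAs were lower in 15 of 17 cases, with SNHG3 at -3.36 and GAS5 at -2.16, while SNHG12 was higher (1.50). The rises of other noncoding genes were led by the pseudogenes PES1P2 (5.72), CROCCP1 (5.34), C3P1 (5.25), SMPD4P1 (4.95) and NPAP1P6 (4.96). These pseudogenes were low in cells and were ranked by the same difference, so their direction was partly set by the choice too. Processed pseudogenes together went from 0.452% ± 0.0189 of the reads to 1.70% ± 0.178 (SD, 3 libraries per group).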

How the data were processed

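Libraries of total RNA from 3 hypoxia cell and 3 hypoxia EV samples were grouped by title. The deposited table gives a normalized signal per gene that amounts to reads divided by a factor for each library: 100% of the values are whole multiples (tolerance 0.01) of a step, and reads were recovered from that step. Bowtie 0.12.2 and DESeq2 1.30.1 stand in the submitters' processing notes, with hg38 and GRCh38. No source used here gives the counter, annotation or strand setting, so values of overlapping, antisense or near-identical genes are uncertain. GENCODE 29 held 52338 of the 57773 gene IDs, and the other 5435 took 3.64 to 4.95% of a library's reads.

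Genes averaging 10 or more over the 6 libraries were tested by limma-trend (R 4.3.3, limma 3.58.1) on log2(value + 1), with Benjamini-Hochberg adjustment at 0.05. The fit was checked on simulated data. Shares, densities and detected genes were compared with two-sided exact permutation tests. GC content is that of the longest transcript and length that of all exons. The genes named are those with the largest lower bound (absolute log2 fold change less 1.96 SE): 10 each way among coding genes averaging 100 or more, 10 among those averaging 500 or more in cells, and 5 of other gene types. To these came fixed genes, up to 4 per list with the smallest p, and the 10 highest genes of each group. Both the lower bound and the smallest p favour genes whose groups do not overlap. For genes named by them, a lack of overlap is therefore not separate evidence. Members, lists and rule were chosen with earlier results of these data known, and genes outside the rule are said in the text or below to be chosen after their values were seen. Some genes that the rule gives are not reported here. The alternatives were pseudocounts of 0.5 and 5, a filter at 50 or no filter, TMM factors, equal totals (with the vector genes and without them), edgeR 4.0.16 and DESeq2 1.42.0 on recovered reads, a replicate block, removal of the olfactory receptor density, and each library left out.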

Additional observations from a re-analysis of the deposited data

How the results depend on the processing

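With a filter at 50, 4268 genes were higher, and with the olfactory receptor density removed 7302, against 12889. The counts of higher and lower genes stayed within 1.5 times of 12889 and 7454 under the other alternatives, from 9901 and 9869 (TMM factors) to 16485 and 5203 (equal totals without the vector genes). edgeR gave 11407 and 8732 and DESeq2 11388 and 8779. Leaving out 1 library gave 11575 to 12814 higher and 6816 to 7669 lower, a density ratio on olfactory receptors of 13.7 to 16.5 and a ratio of detected genes of 1.31 to 1.37. With the replicate block 12870 were higher and 7465 lower, and 0 of the 307 genes called among 338 followed lost their call. Same-numbered cell and EV libraries did not deviate together (correlations of -0.0268, -0.00474 and -0.0128). With 3 libraries per group, these values cannot show whether same-numbered libraries came from the same culture.

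Of the 307 called genes, 10 turned direction under some alternative and 44 lost their call. With equal totals without the vector genes BTG2 (0.0821), CEBPG (0.0844), INA (0.0155), PDIA4 (0.0221) and SESN2 (0.12) turned. With TMM factors BYSL (-0.10), JUND (-0.16), NOP2 (-0.29), NOP56 (-0.27) and PES1 (-0.11) turned, NOP2 and NOP56 also with edgeR (-0.0677 and -0.0519) and DESeq2 (-0.10 and -0.0862). Leaving out 1 library turned 0 calls and ended 14. Shares turned without the vector genes' reads for C/D snoRNAs (EV over cell 1.18), stress response (1.07), cytoskeleton (1.15) and zinc finger genes (1.15). When 1 library was left out, the shares ran from 0.814 to 1.14 for C/D snoRNAs, 0.898 to 1.03 for the cytoskeleton and 0.982 to 1.03 for protocadherins. Some small counts of members moved by over 1.5 times when 1 library was left out. Without EV replicate 3, 2 heat shock and 2 mitochondrial ribosome genes were higher (1 each with all libraries) and 1 histone gene (2). Without that library or any cell library 1 DNA replication gene was higher (2), without cell replicate 2 or 3 also 2 giant protein genes (4), and without cell replicate 3 only 2 immediate early genes were lower (4). The causes were not tested. Of 38 lists 28 had a median below 0, against 28 with TMM factors, 25 with equal totals and 24 without the vector genes. A count of 0 in an EV library allows 3 reads, so genes under 5.38 units cannot be told from absence.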

Other observations

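Chromosome 19 stood apart among well-expressed coding genes, in classes formed after the values were seen. Of its 250 genes that averaged 500 or more, 65 (26.0%) were higher in EVs and 115 lower, with a median log2 fold change of -0.21. On the other chromosomes 260 of 3183 (8.17%) were higher and 2476 lower, with a median of -1.05. Within the highest GC class the medians were -0.11 for 169 genes of chromosome 19 and -0.35 for 518 genes elsewhere. The cause was not tested.

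Gene segments of antigen receptors, which kidney cells do not rearrange, had EV reads as well. Immunoglobulin V genes took 0.00111% ± 0.000330 of cell reads and 0.0235% ± 0.00155 of EV reads, and T cell receptor V genes 0.00137% ± 0.000297 and 0.0168% ± 0.000763 (SD, 3 libraries per group). The miRNA locus MIR3648-2 went the other way, at 12188, 17106 and 18980.5 in cells and 2679.7, 1856 and 1740.2 in EVs (log2 fold change -2.94 ± 0.16 SE, adjusted p = 5.27e-09 by limma).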
